A study of Mus musculus with 16 samples.

Results

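The 9 genes described here encode chemokines that draw T cells, NK cells or other leukocytes: Cxcl9, Cxcl10, Cxcl16, Cxcl2, Ccl3, Ccl4, Ccl5, Ccl17 and Ccl22. They were chosen by name, with earlier results of these data known. The choice was from 19938 genes measured on Affymetrix Mouse Gene 1.0 ST arrays, and each of the 9 genes had 1 probe set. Levels are given as array intensity, a linear scale, and differences as log2(intensity + 1). The cells were type 1 conventional dendritic cells (cDC1), a subset that engulfs dying cells and cross-presents their antigens to CD8 T cells. They came from C57BL/6 mice in which both copies of Wdfy4 were disrupted (KO) or 1 intact copy was kept (Het). WDFY4 is a protein that cDC1 need for cross-presentation of cell-associated antigen. All mice had received regressor tumours, which the host normally rejects, in the back flank. On day 6, inguinal lymph nodes of the draining or the opposite, non-draining flank were digested with collagenase B and DNase I, and cDC1 were sorted. The 4 groups were KO draining, Het draining, KO non-draining and Het non-draining, with 4 arrays each, which carry the numbers 1 to 4. The labels call the cells of the draining node activated and those of the other node unactivated. They give no mice free of tumour, no wild-type mice and no statement on the deleted part of the gene. Whether each array stands for its own mouse is not stated, so p-values cover only the variation among these samples, part of which may be technical.

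Chemokines are small secreted proteins that bind G protein-coupled receptors on leukocytes and guide their movement. CXCL9 and CXCL10 are interferon-induced ligands of CXCR3, a receptor of activated T and NK cells, and in tumours cDC1 are a known source of both. CXCL16 is made as a membrane protein, is shed by proteases and binds CXCR6 on effector T cells. CCL3 and CCL5 bind CCR1, a receptor of monocytes and T cells. CXCL2 attracts neutrophils through CXCR2, so it is a member by its listing rather than as a T cell attractant. CCL17 and CCL22 bind CCR4, which regulatory and helper T cells carry, and both genes are known to be induced when dendritic cells mature.

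Several of these genes lie in clusters, and the sequences before their starts are shown for Cxcl9 and Cxcl10, the CXCR3 ligands, and for Ccl17 and Ccl22, the CCR4 ligands, which carry most of the results below. In GRCm38.p6, Cxcl10 occupies positions 92346638 to 92348889 of chromosome 5 and Cxcl9 positions 92321331 to 92328079, both on the minus strand. Ccl22 lies at 94745684 to 94751388 and Ccl17 at 94809380 to 94812038 of chromosome 8, on the plus strand. The 250 bases before the annotated start are printed 5′ to 3′ on the strand of the gene, from RefSeq sequences of GRCm38.p6, with matches to 4 motifs in capitals. They cover chr5:92348890-92349139 for Cxcl10, chr5:92328080-92328329 for Cxcl9, chr8:94810203-94810452 for Ccl17 and chr8:94745434-94745683 for Ccl22. The Ccl17 window ends inside the span of the gene model, at the start that the table gives.
Cxcl10: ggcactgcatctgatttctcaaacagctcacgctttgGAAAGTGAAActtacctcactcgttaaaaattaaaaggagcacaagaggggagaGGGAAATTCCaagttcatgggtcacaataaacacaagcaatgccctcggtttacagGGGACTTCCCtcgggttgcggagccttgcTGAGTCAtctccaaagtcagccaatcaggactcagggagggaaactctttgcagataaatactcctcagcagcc
Cxcl9: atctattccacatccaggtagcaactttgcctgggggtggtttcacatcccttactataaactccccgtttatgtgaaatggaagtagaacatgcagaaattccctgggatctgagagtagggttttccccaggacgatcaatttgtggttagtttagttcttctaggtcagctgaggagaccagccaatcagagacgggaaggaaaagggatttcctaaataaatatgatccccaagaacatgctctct
Ccl17: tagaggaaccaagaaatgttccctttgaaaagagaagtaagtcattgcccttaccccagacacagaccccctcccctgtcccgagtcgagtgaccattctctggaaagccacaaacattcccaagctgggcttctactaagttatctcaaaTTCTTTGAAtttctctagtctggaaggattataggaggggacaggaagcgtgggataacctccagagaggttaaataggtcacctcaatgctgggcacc
Ccl22: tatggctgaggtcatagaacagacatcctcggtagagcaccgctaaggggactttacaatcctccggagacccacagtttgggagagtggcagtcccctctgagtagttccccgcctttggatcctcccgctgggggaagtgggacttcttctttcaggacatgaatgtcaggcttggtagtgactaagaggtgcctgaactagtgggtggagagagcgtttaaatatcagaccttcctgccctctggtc
The motifs were the core of the interferon-stimulated response element (GAAANNGAAA), the gamma-activated site (TTCNNNGAA), the NF-kappaB consensus and the AP-1 site (TGANTCA), each searched on both strands. The Cxcl10 window held 1 core element 213 to 204 bases before the start, NF-kappaB matches at 159 to 150 and 103 to 94 bases, and 1 AP-1 match at 74 to 68 bases. The Ccl17 window held 1 match to the gamma-activated site, 99 to 91 bases before the start. The Cxcl9 and Ccl22 windows held none of these letters. Of 32851 promoter windows of this length, 2.98% held the core element, 7.02% the gamma-activated site, 3.90% the NF-kappaB consensus and 6.75% the AP-1 site. Of the other members with a window, Cxcl2 had a pair of overlapping NF-kappaB matches between 97 and 87 bases before its start, and Ccl3 had no match. Windows were found for 6 of the 9 members, and those of Ccl4, Ccl5 and Cxcl16 were not analysed here.

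The arrays had medians between 38.6 and 40.8, and their number limits the precision. The 10 cDC1 markers, among them Xcr1, Clec9a and Batf3, had a mean log2 level between 9.89 and 10.50 on every array, while the 10 T cell markers stood between 6.45 and 7.81. KO draining array 2 stood apart. It had the highest loading on the first component, 0.65 of a component with 35.3% of the variance, and a median correlation of 0.94 with the other arrays, against 0.96 to 0.98 for the rest. Where leaving it out moved a member's difference below by over 1.5 times, the value without it is given. For other named genes, for gene lists and for correlations no value without it is given. In a sort measured in bulk, fewer cells of a type and less RNA per cell cannot be told apart.

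For Cxcl9 and Cxcl10 the difference between KO and Het cells was negative in the draining node and positive in the non-draining node, with neither passing over all genes. Both were lowest in Het cells of the non-draining node. KO cells there stood about as high as Het cells of the draining node, while KO cells of the draining node lay between. Cxcl10 (probe set 10531415) had intensities of 108, 72.6, 114 and 116 on KO draining arrays 1 to 4, against 133, 143, 115 and 97.3 on Het draining arrays. It had 116, 156, 120 and 145 on KO non-draining arrays, against 111, 74.2, 69.0 and 84.0 on Het non-draining arrays. In the non-draining node the KO arrays were all brighter than the Het arrays, though KO array 1 and Het array 1 were only a few units apart, and in the draining node the genotypes overlapped. The means in the draining node were 102 ± 20.2 for KO and 122 ± 20.1 for Het cells, and those in the non-draining node 134 ± 19.5 for KO and 84.4 ± 18.5 for Het cells (SD, n = 4 each).

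**Figure D1:**
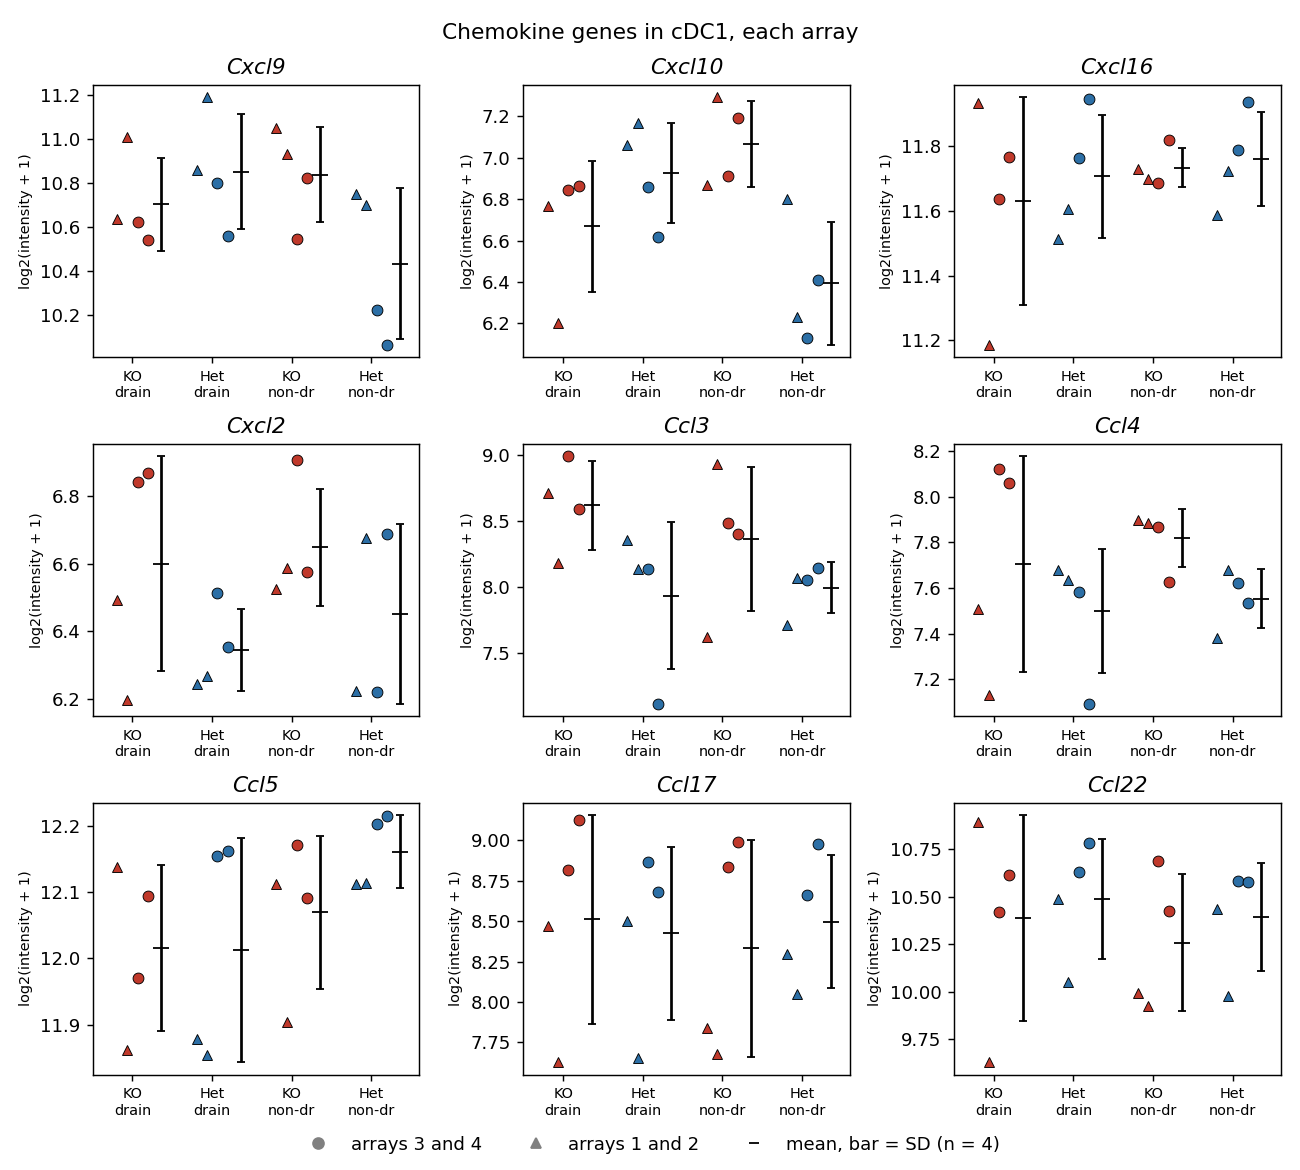
Level of each chemokine gene on each of the 16 arrays, as log2(intensity + 1), by group, with KO in red and Het in blue; circles are arrays 3 and 4, triangles arrays 1 and 2, and the bar is the mean with its SD (n = 4). The Cxcl10 panel shows all KO non-draining arrays above the Het non-draining ones, and in the Ccl17 panel every circle lies above every triangle. Axes do not start at 0.

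Cxcl10 had a KO minus Het log2 difference of -0.26 ± 0.17 (SE) in the draining node and of 0.67 ± 0.17 in the non-draining node, with unadjusted p values of 0.156 and 0.00132 in limma. The difference between these differences, the interaction of genotype and node, was -0.93 ± 0.25, with a 95% interval from -1.45 to -0.41. Its unadjusted p in limma was 0.00156, the 4th smallest of 19938 genes, while the Benjamini-Hochberg adjusted p was 1.00. Without KO draining 2 the interaction was -0.78 and the draining difference -0.10. Within arrays 1 and 2 the interaction was -1.20 and within arrays 3 and 4 it was -0.67. For KO against Het alone those sets gave -0.63 and 0.12 in the draining node, so the sign there depended on the set of arrays, and 0.56 and 0.78 in the non-draining node.

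Cxcl9 (probe set 10531407) had intensities of 1589, 2061, 1572 and 1489 on KO draining arrays 1 to 4, against 1856, 2333, 1779 and 1506 on Het draining arrays. It had 2120, 1950, 1491 and 1808 on KO non-draining arrays, against 1720, 1659, 1192 and 1068 on Het non-draining arrays. For each number the KO draining array was below the Het draining array. The KO non-draining array was above the Het non-draining array, but the groups overlapped in both nodes. The labels do not say that arrays of 1 number belong together, so these are not known pairs. Cxcl9 had a KO minus Het difference of -0.15 ± 0.17 in the draining node and of 0.40 ± 0.17 in the non-draining node (unadjusted p of 0.393 and 0.0304 in limma). The interaction was -0.55 ± 0.24, with a 95% interval from -1.06 to -0.04 (limma, unadjusted p = 0.0352 and adjusted p = 1.00). The draining difference was -0.25 without KO draining 2 and -0.04 without Het draining 2. The interaction stayed between -0.66 and -0.43 without each array in turn. With the arrays' number as a block the unadjusted p of the Cxcl9 interaction in limma was 0.00405. With a random block of arrays sharing genotype and number it was 0.0165. For the Cxcl10 interaction those blocks gave 0.00256 and 0.000810 in limma. Neither gene passed over all genes with these blocks.

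Between nodes, mean Cxcl9 and Cxcl10 were lower in the draining than in the non-draining node in KO cells, and higher in Het cells. The draining minus non-draining difference of Cxcl10 was -0.40 ± 0.17 in KO cells and 0.53 ± 0.17 in Het cells, with unadjusted p values of 0.0361 and 0.00716 in limma. For Cxcl9 it was -0.13 ± 0.17 in KO cells and 0.42 ± 0.17 in Het cells (unadjusted p of 0.44 and 0.0256). In KO cells every draining array lay below every non-draining array for Cxcl10, by a margin of under 1 intensity unit. Without KO draining 2 the difference in KO cells was -0.24 for Cxcl10 and also -0.24 for Cxcl9. The node and genotype comparisons use the same 4 groups, so these values are not separate evidence for the interaction.

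Over the 7 comparisons of genotype and node, limma called 0% of all genes tested at an adjusted p under 0.05. At an unadjusted p under 0.05, KO against Het gave 1 member in the draining node (Ccl3, with 3.39% of all genes) and 2 in the non-draining node (Cxcl9 and Cxcl10, with 2.48%). Draining against non-draining gave 1 member in KO cells (Cxcl10, with 2.11% of all genes) and 2 in Het cells (Cxcl9 and Cxcl10, with 3.29%). The interaction gave 2 (Cxcl9 and Cxcl10, with 2.32%), the genotype difference over both nodes 1 (Ccl3, with 3.49%) and the node difference over both genotypes 0 (with 3.06%). The members are 9 genes chosen by name with earlier results of these data known. Counts of 1 or 2 among them, and ranks of single members, therefore give no firm share to set against these percentages. In the 4 comparisons of single groups, Cxcl10 alone among the members had groups that did not overlap. It was higher in KO than in Het cells of the non-draining node, as for 1.2% of all genes, and lower in draining than in non-draining KO cells, as for 0.592%.

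**Figure D2:**
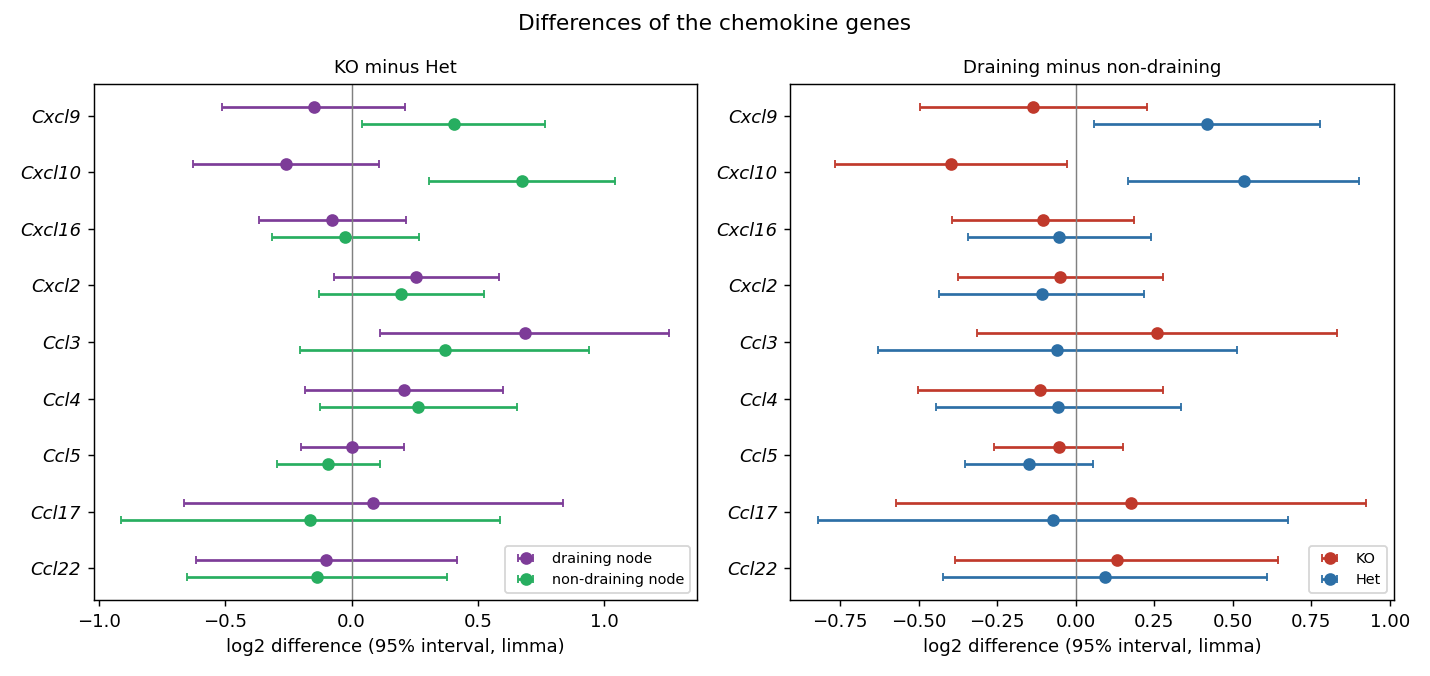
Log2 differences of the 9 genes with 95% intervals from limma, KO minus Het by node on the left and draining minus non-draining by genotype on the right. The Cxcl9 and Cxcl10 points of the 2 series lie on opposite sides of 0 in each panel, while Ccl5 and Cxcl16 have the narrowest intervals.

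Regulators of interferon and NF-kappaB signalling were read in the same comparisons. Of 19 such genes measured, 11 were higher and 8 lower in KO than in Het cells of the non-draining node, with a median difference of 0.021, against 0.0048 for all genes. The draining node had 10 higher and 9 lower (median 0.0028, against -0.0026 for all genes). None passed in limma in either node with all arrays, as no member did. The smallest p in the non-draining node belonged to Irf7, which drives type I interferon genes, at 0.78 ± 0.28, and to Irf4, a factor of dendritic cell and lymphocyte maturation, at -0.43 ± 0.20. In the draining node it belonged to Ifngr1, a chain of the interferon gamma receptor, at 0.57 ± 0.23 (mean log2 level 9.56 in KO and 8.98 in Het cells). Irf7 had an interaction of -0.78 ± 0.39 (unadjusted p = 0.0629 and adjusted p = 1.00 in limma). In arrays 3 and 4 alone its non-draining difference was 1.59, which passed (adjusted p = 0.030 in limma). In arrays 1 and 2 alone 0 genes passed in that comparison, so the call of Irf7 depended on the set of arrays. Marker genes of cell types, none of which passed, also had differences of 1 sign by genotype in the non-draining node, where 6 of 6 B cell markers (median 0.49) and 10 of 10 cDC1 markers (median 0.21) were higher in KO arrays and 10 of 10 T cell markers lower (median -0.30). The draining node had 9 of 10 T cell markers (median 0.32), 4 of 10 cDC1 markers (median -0.02) and 5 of 6 B cell markers (median 0.19) higher in KO. The interaction was negative for 9 of 10 cDC1 markers (median -0.23), as for Cxcl9 and Cxcl10, and positive for 10 of 10 T cell markers (median 0.70). Mean levels of the cDC1 markers in the non-draining node ranged from 10.17 to 10.50 in KO and from 9.89 to 10.43 in Het arrays. B cell marker levels there ranged from 5.78 to 6.55 in KO and from 5.31 to 6.30 in Het arrays, and T cell marker levels from 6.45 to 7.62 in KO and from 6.85 to 7.75 in Het arrays. Their part in the Cxcl9 and Cxcl10 values was not tested.

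Ccl3, Ccl4 and Cxcl2 were higher on average in KO than in Het cells in both nodes, and none passed over all genes. CCL3 and CCL4 are inflammatory chemokines that innate cells and activated lymphocytes release quickly. Ccl3 (probe set 10389231) had intensities of 418, 289, 507 and 384 on KO draining arrays 1 to 4, against 325, 280, 280 and 137 on Het draining arrays. It had 196, 487, 357 and 337 on KO non-draining arrays, against 208, 267, 263 and 281 on Het non-draining arrays. In the draining node KO array 2 was the only KO array within the range of Het, and Het array 4 lay far below the rest. Of the non-draining arrays, KO array 1 was lower than every Het array and the other 3 KO arrays were higher than all of them.

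Ccl3 had a KO minus Het difference of 0.69 ± 0.27 in the draining node and of 0.37 ± 0.27 in the non-draining node (unadjusted p of 0.0219 and 0.193 in limma). Over both nodes it was 0.53 ± 0.19, with a 95% interval from 0.12 to 0.93 (unadjusted p = 0.0140 and adjusted p = 1.00 in limma). The draining difference was 0.41 without Het draining 4 and 0.83 without KO draining 2. In arrays 1 and 2 alone it was 0.20, and in arrays 3 and 4 alone 1.17. Leaving out KO non-draining 2 gave 0.18 in the non-draining node, and leaving out KO non-draining 1 gave 0.61. The interaction, 0.32 ± 0.38, did not show that the genotype difference of Ccl3 depended on the node (unadjusted p = 0.419 in limma).

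Ccl4 (probe set 10379721) had intensities of 181, 139, 277 and 266 on KO draining arrays 1 to 4, against 204, 198, 191 and 136 on Het draining arrays. It had 237, 235, 233 and 197 on KO non-draining arrays, against 166, 204, 196 and 185 on Het non-draining arrays. The draining KO arrays split by number, with arrays 3 and 4 above every Het array and arrays 1 and 2 below most of them. For KO minus Het, Ccl4 differed by 0.21 ± 0.18 in the draining node, 0.40 without KO draining 2, -0.34 within arrays 1 and 2 and 0.75 within arrays 3 and 4. In the non-draining node it was 0.26 ± 0.18 (unadjusted p = 0.170 in limma), with 0.36 and 0.17 in those sets. Over both nodes it was 0.24 ± 0.13. The gene models of Ccl3 (chromosome 11, 83647843 to 83649378) and Ccl4 (83648624 to 83664683) overlap in GRCm38.p6. Whether this bears on the signals of the pair was not tested.

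Cxcl2 (probe set 10523156) was dimmer, with 89.0, 72.4, 114 and 116 on KO draining arrays 1 to 4, against 74.8, 76.1, 90.3 and 80.9 on Het draining arrays. It had 91.2, 95.2, 119 and 94.4 on KO non-draining arrays, against 73.8, 101, 73.5 and 102 on Het non-draining arrays. The groups overlapped in both nodes. For KO minus Het, Cxcl2 differed by 0.26 ± 0.15 in the draining node, 0.39 without KO draining 2, and 0.20 ± 0.15 in the non-draining node. Over both nodes it was 0.23 ± 0.11 (unadjusted p = 0.0544 and adjusted p = 1.00 in limma). Node differences were small for all 3 genes, between -0.11 and 0.26 in KO cells and between -0.11 and -0.06 in Het cells. Without KO draining 2 those in KO cells were 0.40 for Ccl3, 0.08 for Ccl4 and 0.09 for Cxcl2.

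Immediate early genes, a class induced by signalling and by tissue digestion alike, had mostly positive KO minus Het differences, and none of the 10 measured passed in limma in either node. Their mean log2 level was 10.20 to 10.42 on KO draining arrays, against 9.68 to 10.22 on Het draining arrays. In the non-draining node it was 10.18 to 10.50 on KO arrays, against 9.74 to 10.09 on Het arrays. By sign, 9 of the 10 genes were higher in KO than in Het cells in the draining node (median 0.33) and 10 in the non-draining node (median 0.37), against medians of -0.0026 and 0.0048 for all genes. The part of these genes in the Ccl3, Ccl4 and Cxcl2 values was not tested.

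Ccl5 and Cxcl16 varied least between the groups. CCL5 also attracts memory T cells, and its gene had intensities between 3719 and 4505 on KO draining arrays, 3701 and 4585 on Het draining arrays, 3829 and 4612 on KO non-draining arrays and 4426 and 4755 on Het non-draining arrays. Ccl5 differed between KO and Het by 0.0036 ± 0.10 in the draining node, with a 95% interval from -0.20 to 0.21 and a value of 0.06 without KO draining 2, and -0.09 ± 0.10 in the non-draining node, from -0.30 to 0.11. Draining minus non-draining was -0.05 ± 0.10 in KO cells, -0.0020 without that array, and -0.15 ± 0.10 in Het cells. Cxcl16 had intensities between 2329 and 3913 on KO draining arrays, 2920 and 3945 on Het draining arrays, 3294 and 3611 on KO non-draining arrays and 3076 and 3920 on Het non-draining arrays. Its lowest value came from KO draining 2. Cxcl16 had a KO minus Het difference of -0.08 ± 0.14 in the draining node, 0.07 without that array, and -0.03 ± 0.14 in the non-draining node. Its 95% intervals ran from -0.37 to 0.21 and from -0.32 to 0.26.

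Ccl17 and Ccl22 had no clear difference between genotypes or nodes, and they varied much between arrays of 1 group. Ccl17 (probe set 10574226) had intensities of 354, 197, 450 and 558 on KO draining arrays 1 to 4, against 361, 200, 465 and 408 on Het draining arrays. It had 228, 204, 455 and 506 on KO non-draining arrays, against 313, 264, 404 and 504 on Het non-draining arrays. In each group arrays 3 and 4 were the highest pair and array 2 was the lowest. The KO minus Het difference was 0.09 ± 0.35 in the draining node, 0.38 without KO draining 2, and -0.16 ± 0.35 in the non-draining node. The 95% intervals were wide, from -0.66 to 0.83 and from -0.91 to 0.59.

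Ccl22 (probe set 10574213) had intensities of 1898, 791, 1367 and 1568 on KO draining arrays 1 to 4, against 1435, 1060, 1583 and 1764 on Het draining arrays. It had 1020, 971, 1648 and 1373 on KO non-draining arrays, against 1383, 1009, 1533 and 1528 on Het non-draining arrays. Array 2 was the lowest of each group, and KO draining array 1 was the highest of all 16. The KO minus Het difference was -0.10 ± 0.24 in the draining node, 0.15 without KO draining 2, and -0.14 ± 0.24 in the non-draining node. Draining minus non-draining was 0.13 ± 0.24 in KO cells, 0.38 without KO draining 2, and 0.09 ± 0.24 in Het cells.

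The numbers in the labels are not explained there, and the brightness of Ccl17 went with them. Arrays numbered 3 and 4 were compared with arrays 1 and 2, 8 against 8, with the 4 groups as a block. This split was chosen with earlier results of these arrays known. It called 2359 genes in limma, 11.8% of all genes, of which 1501 were higher and 858 lower in arrays 3 and 4. Of the 9 chemokine genes 2 were called, 1 in each direction, so their share was not read as particular to them. At an unadjusted p under 0.05 there were 5 members, where 29% of all genes reached it.

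Ccl17 rose and Cxcl9 fell in arrays 3 and 4. Ccl17 ranged from 404 to 558 in arrays 3 and 4, against 197 to 361 in arrays 1 and 2, so the sets did not overlap, as for 1.05% of all genes in this direction. The difference was 0.85 ± 0.14, or 1.81-fold on the log2(intensity + 1) scale, with an adjusted p of 0.00189 in limma. It stayed between 0.77 and 0.95 without each array in turn, with adjusted p values of at most 0.00642 under every setting tried. Cxcl9 ranged from 1068 to 1808 in arrays 3 and 4, against 1589 to 2333 in arrays 1 and 2, so the sets overlapped. Its difference was -0.37 ± 0.08 (adjusted p = 0.00886 in limma), with adjusted p values of at most 0.0222 under every setting tried.

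Ccl22 averaged 1546 ± 132 in arrays 3 and 4 and 1196 ± 355 in arrays 1 and 2 (SD, n = 8 each), a difference of 0.42 ± 0.14. Its adjusted p of 0.0631 in limma missed the threshold. Without KO draining 1, the brightest array for this gene, the difference was 0.55 with an adjusted p of 0.00216, and Ccl22 then passed. Cxcl2 (0.22 ± 0.10), Cxcl16 (0.17 ± 0.09) and Ccl5 (0.14 ± 0.06) also had positive differences that did not pass with all arrays, with adjusted p values between 0.142 and 0.211 in limma. Cxcl10 (-0.07 ± 0.12), Ccl3 (0.02 ± 0.19) and Ccl4 (0.09 ± 0.13) had intervals that included 0. Without KO draining 2 the values were 0.11 for Cxcl16, -0.16 for Cxcl10, -0.05 for Ccl3 and -0.0054 for Ccl4, and none of these passed.

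**Figure D3:**
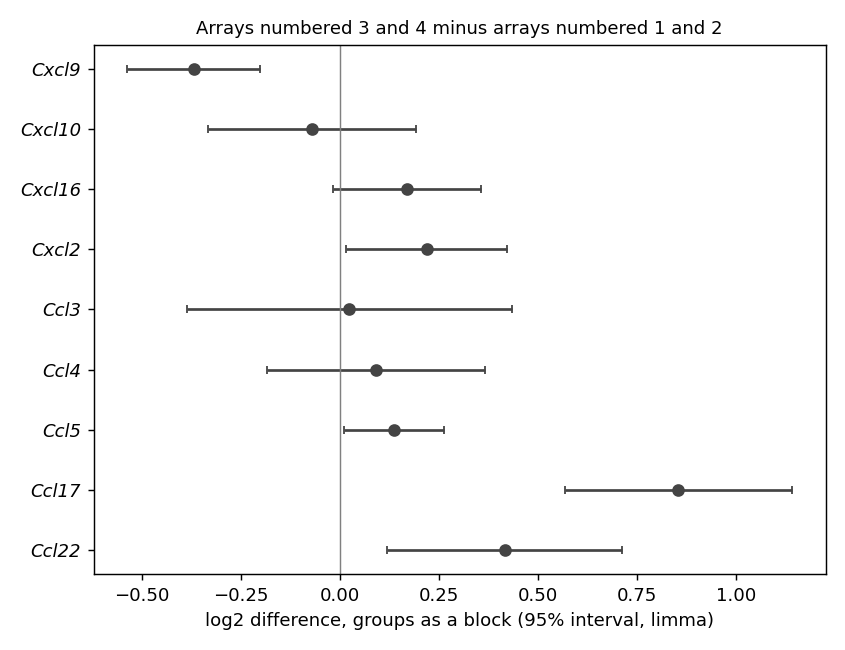
Log2 difference of each gene between arrays numbered 3 and 4 and arrays numbered 1 and 2 in the labels, with the 4 groups as a block and 95% intervals from limma (8 against 8 arrays). Ccl17 at 0.85 lies farthest to the right and Cxcl9 at -0.37 is the only gene whose interval lies wholly below 0.

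Other genes of chemokine signalling were counted in the same comparison, and each count is small and to be read against the 11.8% of all genes called. Among 24 other chemokine genes 3 rose and 0 fell in arrays 3 and 4: Ccl19, a CCR7 ligand that guides dendritic cells and T cells within lymph nodes, by 0.89 ± 0.13 (adjusted p = 0.00112), Xcl1, a ligand for the cDC1 receptor XCR1 made by T and NK cells, by 0.87 ± 0.19 (adjusted p = 0.0101), and Ccl6 by 0.48 ± 0.10 (adjusted p = 0.00722). Of 6 receptors of the members 1 rose, the CXCL16 receptor gene Cxcr6, by 1.24 ± 0.21 (adjusted p = 0.00280). Ccr4, the receptor of CCL17 and CCL22, stood at 0.35 ± 0.14 and did not pass (adjusted p = 0.115), and Cxcr3 at -0.11 ± 0.14. Among 19 regulators, Irf3 (0.41 ± 0.08) and Irf1 (0.53 ± 0.13) rose and Rel, an NF-kappaB subunit gene, fell (-0.32 ± 0.06). None of the 7 genes for proteases and decoy receptors of chemokines passed. The median differences were -0.02 for the other chemokines, 0.08 for the receptors, 0.01 for the regulators and 0.06 for the proteases and decoy receptors, against -0.03 for all genes.

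Some marker genes of cell types were also called between the number sets, where 11.8% of all genes were. T cell markers were higher in arrays 3 and 4 for 10 of 10 genes (median 0.55), of which 5 passed, and their mean level ranged from 6.86 to 7.81 in arrays 3 and 4 and from 6.45 to 7.75 in arrays 1 and 2. Of 8 NK and cytotoxic cell markers 6 were higher and 2 lower (median 0.14), and 1 passed, Nkg7, which rose by 1.25 ± 0.20. Of 5 plasmacytoid dendritic cell markers Bst2 (0.76 ± 0.13) and Ly6d (0.68 ± 0.17) rose and Ccr9 (-0.58 ± 0.14) fell. Of the 10 immediate early genes Egr1 (-0.42 ± 0.08) and Fosb (-0.49 ± 0.10) fell. None of the B cell, macrophage and monocyte, neutrophil or cDC2 markers passed. Of 10 cDC1 markers 9 were lower and 1 higher (median -0.21, against -0.03 for all genes). Of these 4 fell and 1 rose past the threshold, with Tlr3 at -0.81 ± 0.13, Cadm1 at -0.44 ± 0.08 and Batf3 at 0.54 ± 0.07. Mean cDC1 marker levels ranged from 9.89 to 10.39 in arrays 3 and 4 and from 10.18 to 10.50 in arrays 1 and 2. Of 6 measured markers of mature migratory and skin dendritic cells 1 rose, Socs2, by 0.46 ± 0.14. Ccr7 (0.24 ± 0.09) and Fscn1 (0.33 ± 0.13), both known to be induced when dendritic cells mature, did not pass, with adjusted p values of 0.0810 and 0.102. The list's mean level ranged from 9.25 to 9.40 in arrays 3 and 4 and from 8.77 to 9.55 in arrays 1 and 2. The part of these markers in the Ccl17 and Cxcl9 values was not tested.

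Across the 16 arrays some members varied together. These correlations are descriptions, since the arrays share groups, numbers and 1 normalization. They were not computed without KO draining 2, which was the highest array of its group for Cxcl9 and the lowest for every other member. The part of that array in the correlations was not tested. Ccl17 and Ccl22 had a Pearson correlation of 0.82, which was 0.84 after group means were removed and 0.80 after the means of groups and number sets were removed. Cxcl9 had negative values with 4 members, -0.72 with Ccl5, -0.70 with Ccl17, -0.63 with Ccl22 and -0.56 with Cxcl16, or -0.49, -0.63, -0.74 and -0.54 after both means were removed. Cxcl16 and Ccl5 had a correlation of 0.73, and Ccl22 with Ccl5 0.64. Ccl3 and Ccl4 had 0.63 and Cxcl2 and Ccl4 0.69, while Cxcl2 and Ccl3 had 0.49. Cxcl9 and Cxcl10 had 0.51, which was 0.16 within groups and -0.16 within groups and number sets. These values include KO draining 2, which stood at opposite ends of its group for this pair. They therefore do not settle whether the pair varied together within groups.

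**Figure D4:**
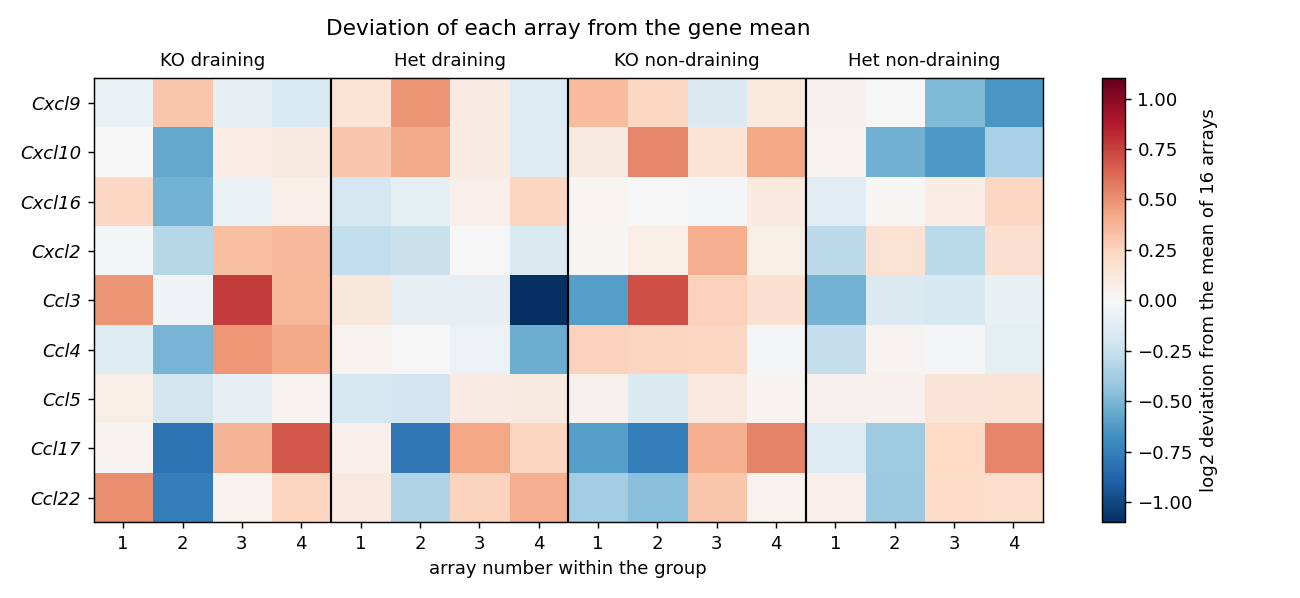
Deviation of each array from the mean of the 16 arrays for each gene (log2 scale, red above and blue below the mean), with arrays 1 to 4 of each group side by side. Array 2 is blue for Ccl17 and Ccl22 in every group, and Cxcl10 is red on all KO non-draining arrays and blue on the Het non-draining arrays 2, 3 and 4.

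The genes whose pattern over the 16 arrays was most like each member were taken from genes at or above the median level. The 3 named for each member had the highest correlations among all those genes, so high values come in part from the search. How high they would run by chance was not tested. For Cxcl9 these were Mycl (Pearson 0.87), a Myc family gene that dendritic cells express, Eif4g3 (0.84) and Slc7a8 (0.83). For Cxcl10 they were Dnaaf5 (0.81), Ufl1 (0.80) and Hsd17b12 (0.79), and for Cxcl2 they were Klf6 (0.81), Mgll (0.80) and Phlda1 (0.78). For Ccl3 they were Dlgap3 (0.84), Clcc1 (0.82) and Tbc1d19 (0.76), and for Ccl4 they were Cd300c (0.87), Fbxl15 (0.87) and Sfr1 (0.85). For Ccl17 they were Psmg4 (0.93), Trappc6a (0.93) and Trbv1 (0.93), and for Ccl22 they were Rcsd1 (0.93), Elobl (0.93) and Tmem127 (0.92). For Ccl5 they were Samsn1 (0.89), Lad1 (0.88) and Aup1 (0.88), and for Cxcl16 they were Rad51d (0.92), E030011O05Rik (0.92) and Trim34a (0.92). Once the means of groups and number sets were removed, the values lay between 0.94 and 0.97 for Cxcl16 and Ccl22, between 0.81 and 0.90 for Ccl3 and Ccl5, between 0.73 and 0.83 for Ccl17 and between 0.70 and 0.73 for Cxcl2. They lay between 0.58 and 0.68 for Cxcl10. For Cxcl9 they were 0.76 with Mycl, 0.61 with Eif4g3 and 0.30 with Slc7a8, and for Ccl4 they were 0.95 with Sfr1, 0.81 with Cd300c and 0.57 with Fbxl15.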

How the data were processed

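Values were deposited by the authors as linear array intensities for 35556 probe sets, with RMA normalization, per the submitters' processing notes; the software is not named there. RMA gives the probes of all arrays 1 distribution, while the probe sets built from them still differed slightly in median between arrays. It pulls dim probe sets toward a floor, so small differences of dim genes are understated. Of the probe sets 21789 carried 1 symbol, 1621 several and 12146 none; the brightest of each symbol gave 19938 genes. From the deposited intensities, log2(intensity + 1) was computed and tested two-sided with limma 3.58.1 (R 4.3.3), 1 fit over 4 groups and 16 arrays, with Benjamini-Hochberg adjustment over all genes and a threshold of 0.05. Errors after ± are SEs of differences or SDs of means. All members were named; from each list, up to 3 genes of smallest p per comparison. Members, lists and the split by number were chosen with earlier results of these data known. The code was tested on simulated data. A few genes of the lists were not analysed here. Alternatives were another pseudocount, renormalization, a filter on dim genes, the mean of all probe sets, blocks, array weights and leaving out arrays. Replicate numbers come from the sample titles. Deviations of same-numbered arrays had correlations over 0.1 in 4 of 4 pairs only between the draining and non-draining Het groups (0.20 to 0.31), and in 2 or 3 of 4 pairs otherwise (-0.06 to 0.48). Plots used matplotlib 3.10.9 in Python 3.11.15.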

Additional observations from a re-analysis of the deposited data

Results flagged for a closer look

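Among the 36 sets of 4 arrays (9 genes in 4 groups), 4 held an array whose gap to its nearest neighbour took more of the group's range than Dixon's 95% limit allows; chance gives about 1 in 20. KO draining array 2 was lowest for Cxcl10, with a gap of 0.849 of the range. KO non-draining array 3 was highest for Cxcl2 (0.840). Het draining array 4 (0.838) and KO non-draining array 4 (0.897) were lowest for Ccl4.

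The KO minus Het difference depended on the node, at an unadjusted p under 0.05 in limma, for Cxcl9 (-0.55) and Cxcl10 (-0.93), draining minus non-draining on the log2 scale. In the non-draining node, KO was above Het at each array number for both genes. In the draining node, KO was below Het at each number for Cxcl9 and for Cxcl10 at numbers 1 to 3. The labels do not pair arrays by number, so these signs are not counts over known pairs. The Cxcl9 groups overlapped in both nodes. Neither interaction passed over all genes.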

How the results depend on the processing

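Ccl17 and Cxcl9 kept their calls between the number sets under every setting run, while Ccl22 passed with dim genes left out (0.42), array weights (0.40) or without KO draining 1 (0.55), and Ccl5 (0.17) and Cxcl16 (0.24) passed without that array too. The number of genes called between the sets was 2359, and 1460 to 3398 without each array in turn, being 1460 without KO draining 4, 1477 without KO non-draining 4, 1508 without Het draining 3 and 1540 without KO non-draining 2. With arrays 1 and 2 only, the KO minus Het difference turned sign for Ccl4 in the draining node (-0.34) and for Cxcl10 over both nodes (-0.035), and with arrays 3 and 4 only for Cxcl10 in the draining node (0.12). The cause was not tested. With arrays 3 and 4 only, genes called instead of 0 numbered 4 for KO against Het draining cells (Clec4b2, Gm12250, Stat4 and Dpep2), 2 for KO against Het non-draining cells (Mcpt2 and Irf7), 5 over both nodes (Clec4b2, Stat4, Atrnl1, Id1 and Mcpt2) and 1 for draining against non-draining KO cells (Mcpt2), all named after their values were seen and none a member. With the replicate number as a block, 1 gene passed for KO against Het over both nodes (Hsph1), and it changed no other call. No member passed in a genotype or node comparison under any setting. Of the member values under alternatives, 1717 kept direction and side of the threshold, 5 came to pass, 3 turned sign, and 102 others, with differences within 1 standard error of 0, also changed sign. The count of 1717 is no measure of stability, since several settings could not move a member's difference. These were the mean of all probe sets (each member had 1), the filter on dim genes, the blocks, and leaving out an array of a group not compared.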
